A study of Mus musculus with 24 samples.

Results

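The subject is the RNA of mouse chromosome 15 in 8 lines of MC38, a colorectal cancer cell line from a C57BL/6 mouse, with the genes taken in order of their position. Members were the genes of the expression table whose first listed exon lies on chromosome 15 and whose mean over the 24 samples was at least 10 normalized counts, after several genes and gene families had been left out by symbol. This gave 472 members of 52636 genes in the table. Of the 1272 genes of chromosome 15, 787 had a mean under 10 and 13 were left out by symbol, among them Sqle, Srebf2, Atf4, Lgals1, St3gal1 and Itga5. Just inside the limit were Snord72 and A330009N23Rik, both with a mean of 10.6, and just outside were Gm6576 with 9.71 and Gm16576 with 9.83. The chromosome had been chosen by its expression values, a shift of its genes in MC38-MOCK#1 and MC38-DKO, so all values of these lines relative to the others are a description and carry no test.

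The study examined how changes to the sugar coat of MC38 cells alter their behaviour, and each value here is the number of reads on a gene after the authors' scaling for library size and composition, called a normalized count below. MC38-WT is the unmodified line, at passages 7 to 9, and was grown without puromycin, whereas each of the other lines was grown with it. MC38-MOCK#1 carries an empty CRISPR/Cas9 construct, MC38-CMAS KO lacks Cmas, which activates sialic acid, MC38-COSMC KO lacks C1galt1c1 (Cosmc), the chaperone needed to extend O-glycans beyond the Tn antigen, and MC38-DKO lacks both, all at passages 4 to 6. MC38-MOCK#2, MC38-FUT9 (both passages 6 to 8) and the line labelled FUT4 (passages 7, 8 and 7) belong to a second set made with a dead Cas9 fused to the VPR activator, the first being its mock line and the others directed at the fucosyltransferase gene in their name. There were 3 samples of each line, harvested at the passages given, so the spread between samples is that within a line and not between independently made lines. The COSMC knockout was a population sorted by lectin binding. Passage differs between MC38-WT and the knockout lines and cannot be told apart from the genetic change there.

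Totals lay between 10911849 and 12263307 normalized counts per sample. Cmas was at 112 ± 17.1 normalized counts (SD, n = 3) in MC38-CMAS KO and 133 ± 10.1 in MC38-DKO, against 344 ± 41.3 in MC38-WT. C1galt1c1 was at 144 ± 19.5 in MC38-COSMC KO and 182 ± 21.0 in MC38-DKO, against 218 ± 22.7 in MC38-WT. In lines not directed at this gene it was at 183 ± 31.5 (MC38-CMAS KO), 181 ± 32.3 (MC38-MOCK#2), 200 ± 25.7 (line labelled FUT4), 201 ± 9.54 (MC38-FUT9) and 238 ± 15.9 (MC38-MOCK#1). Its RNA level thus did not set MC38-DKO apart from these lines. Fut9 was at 757 ± 172 in MC38-FUT9 and at 0 or 1 in MC38-MOCK#2. In the line labelled FUT4, however, Fut4 was at 0 or 1 and Fut9 at 189 ± 19.1, so its label was not borne out and is used only as a name. Epithelial markers were near absent in all 8 lines (Epcam at most 3 and Krt8, itself on chromosome 15, at most 8), except Krt20, which averaged 393 in the line labelled FUT4 and 38.3 in MC38-CMAS KO. Leukocyte markers reached at most 6, and the endothelial marker Cdh5 at most 16, in the line labelled FUT4.

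Genes on a chromosome share a DNA molecule, and tumour cell lines often gain or lose whole chromosomes or large pieces of them as they divide, which alters the dose of many neighbouring genes together. Mouse chromosome 15 has its centromere at the end from which positions are counted. It carries Myc, the transcription factor that drives growth and division, and extra copies of it are well known from mouse T cell lymphomas. DNA was not analysed here, so the values below are RNA levels only.

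Of the 472 members, 425 code for proteins and 27 are processed pseudogenes, whose reads can be shared with their parent genes. Promoters from RefSeq (GRCm38.p6, 250 bases before the first start listed for a gene) were matched for 246 members. Their median GC content was 62.8%, against 52.0% over all 27025 promoters, and their median number of CG pairs was 18, against 6. The motif CACGTG, the E-box that Myc binds, reads the same on both strands and lay in 8.13% of member promoters and 6.05% of all, and TATAAA on either strand in 4.88% and 13.0%. The members were filtered on their level and the full set was not, so the shares compare expressed with all genes. These 4 promoters are shown because they belong to members that behaved differently in what follows. Racgap1 and Espl1, genes of cell division, lay slightly below MC38-WT in MC38-MOCK#1 and MC38-DKO, Myh9, non-muscle myosin, lay close to it, and Fbln1, an extracellular matrix glycoprotein, ranged from absent to more than 100 normalized counts between lines. Capitals mark CACGTG or, read on the opposite strand, TATAAA.
Racgap1, chr15:99651657-99651906, minus strand: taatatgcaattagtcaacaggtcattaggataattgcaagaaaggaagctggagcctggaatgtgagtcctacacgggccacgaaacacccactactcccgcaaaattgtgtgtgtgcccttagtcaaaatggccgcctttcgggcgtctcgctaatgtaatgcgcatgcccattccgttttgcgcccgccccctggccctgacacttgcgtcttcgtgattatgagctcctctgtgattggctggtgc
Espl1, chr15:102296043-102296292, plus strand: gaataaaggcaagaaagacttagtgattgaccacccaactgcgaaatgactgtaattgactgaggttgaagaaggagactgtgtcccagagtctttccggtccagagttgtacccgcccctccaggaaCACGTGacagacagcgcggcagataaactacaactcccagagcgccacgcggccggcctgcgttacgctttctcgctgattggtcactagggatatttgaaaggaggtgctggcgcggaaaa
Myh9, chr15:77842176-77842425, minus strand: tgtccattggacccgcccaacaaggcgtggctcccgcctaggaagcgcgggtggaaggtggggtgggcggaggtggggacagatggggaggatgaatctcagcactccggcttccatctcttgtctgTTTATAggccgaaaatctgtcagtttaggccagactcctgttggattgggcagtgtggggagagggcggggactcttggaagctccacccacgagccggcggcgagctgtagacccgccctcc
Fbln1, chr15:85205699-85205948, plus strand: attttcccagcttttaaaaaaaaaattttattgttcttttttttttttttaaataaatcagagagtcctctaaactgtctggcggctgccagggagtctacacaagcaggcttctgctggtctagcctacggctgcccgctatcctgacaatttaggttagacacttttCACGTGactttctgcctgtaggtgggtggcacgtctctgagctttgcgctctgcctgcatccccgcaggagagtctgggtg
The E-box was present in the promoters of Espl1 and Fbln1, the TATA motif in that of Myh9, and neither in that of Racgap1. A match describes these letters and is not a measured binding site.

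Chromosome 15 RNA was lower in MC38-MOCK#1 and MC38-DKO than in the other 6 lines. The median log2 ratio to MC38-WT over the 472 members was -0.206 in MC38-MOCK#1, a ratio of 0.867, and -0.216 in MC38-DKO, a ratio of 0.861. Taken sample by sample, the median lay between -0.235 and -0.145 in MC38-MOCK#1 (SD 0.0453, n = 3) and between -0.243 and -0.174 in MC38-DKO (SD 0.0345). The MC38-WT samples themselves spread from -0.026 to 0.041, so the samples of these lines did not overlap with them. Over all 13515 genes with a mean of at least 10 the medians were 0.005 and 0.004. In RNA from whole cultures, less RNA per cell and fewer cells that make it cannot be told apart.

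In the remaining lines the medians were small. MC38-CMAS KO was at -0.059 (samples -0.072 to -0.044), MC38-MOCK#2 at -0.040 (-0.097 to -0.017), the line labelled FUT4 at 0.013 (-0.027 to 0.045), MC38-COSMC KO at 0.023 (0.008 to 0.024) and MC38-FUT9 at 0.071 (0.045 to 0.086). Samples of MC38-MOCK#2 and of the line labelled FUT4 overlapped with those of MC38-WT, those of MC38-COSMC KO lay within their range, and those of MC38-CMAS KO and MC38-FUT9 lay just outside it.

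**Figure D1:**
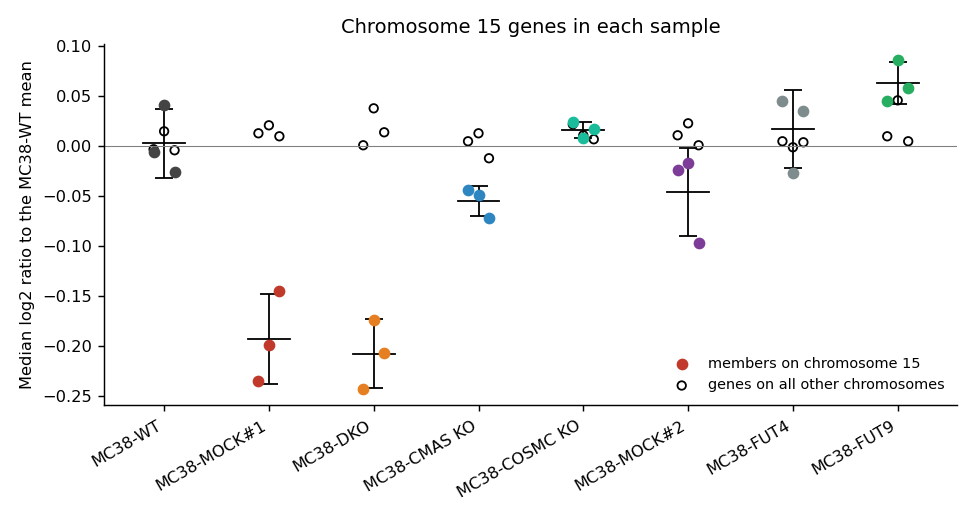
Median log2 ratio to the MC38-WT mean (y axis) in each of 3 samples of the 8 lines (x axis). Filled points are the 472 members on chromosome 15, with a bar at their mean and error bars of 1 SD, and open circles are the genes of all other chromosomes. The filled points of MC38-MOCK#1 and MC38-DKO lie between -0.243 and -0.145, below those of every other line.

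The shift was spread over the members and not carried by a few. In MC38-MOCK#1, 355 members (75.2%) had a ratio below MC38-WT, against 49.2% of all genes with a mean of at least 10, and in MC38-DKO 359 (76.1%), against 49.3%. Of the 472 members, 334 were lower in both lines, 21 in MC38-MOCK#1 only, 25 in MC38-DKO only and 92 in neither. The quartiles of the log2 ratios were -0.397 and -0.003 in MC38-MOCK#1 and -0.430 and -0.014 in MC38-DKO. All 3 samples of MC38-MOCK#1 lay below all 3 of MC38-WT for 185 members (39.2%), where the share over all genes was 15.3%, and above for 36 (7.63%), where it was 15.8%. MC38-DKO gave 185 members lower (39.2%, against 16.6% of all genes) and 31 higher (6.57%, against 17.0%). Both lines were set against the same MC38-WT samples.

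As a share of all normalized counts, the members made up 4.62% ± 0.104 (SD, n = 3) in MC38-WT, 4.07% ± 0.0955 in MC38-MOCK#1 and 4.01% ± 0.0828 in MC38-DKO. The other lines ranged from 4.46% ± 0.0507 in MC38-CMAS KO to 4.77% ± 0.0103 in MC38-FUT9.

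The lower levels did not appear against MC38-WT alone. Set against each of the other 6 lines in turn, the median of MC38-MOCK#1 lay between -0.238 and -0.147 and that of MC38-DKO between -0.252 and -0.150. Between each other the 2 lines differed by -0.017 (MC38-DKO relative to MC38-MOCK#1, samples -0.046 to 0.021), with 33 members lower and 31 higher in all samples, or 6.99% and 6.57%, where 7.58% and 6.77% of all genes were. MC38-MOCK#1 is the control of the knockouts in the study. For the COSMC knockout, the study also compared MC38-WT with the mock line. It set aside genes that changed in both comparisons unless their directions differed. In MC38-COSMC KO the median relative to MC38-MOCK#1 was 0.202 (samples 0.192 to 0.227), and all 3 samples lay above all 3 control samples for 216 members (45.8%, against 20.4% of all genes) and below for 41 (8.69%, against 20.1%). In MC38-CMAS KO it was 0.147, with 149 members higher (31.6%, against 16.4%). MC38-DKO lay 0.150 lower than MC38-CMAS KO on the log2 scale (samples -0.171 to -0.121), with 161 members lower in all samples (34.1%, against 16.8%).

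Among the 20 chromosomes, and with no symbol left out, chromosome 15 had the lowest median ratio to MC38-WT in both lines, -0.215 in MC38-MOCK#1 and -0.223 in MC38-DKO over 485 genes. The other 19 chromosomes lay between -0.088 and 0.139 in MC38-MOCK#1 and between -0.123 and 0.134 in MC38-DKO. Medians of this size occurred on other chromosomes in other lines. Chromosome 7 reached 0.334 in MC38-FUT9, chromosome 10 reached 0.222 in MC38-COSMC KO, and chromosome 16 was at -0.213 in the line labelled FUT4.

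**Figure D2:**
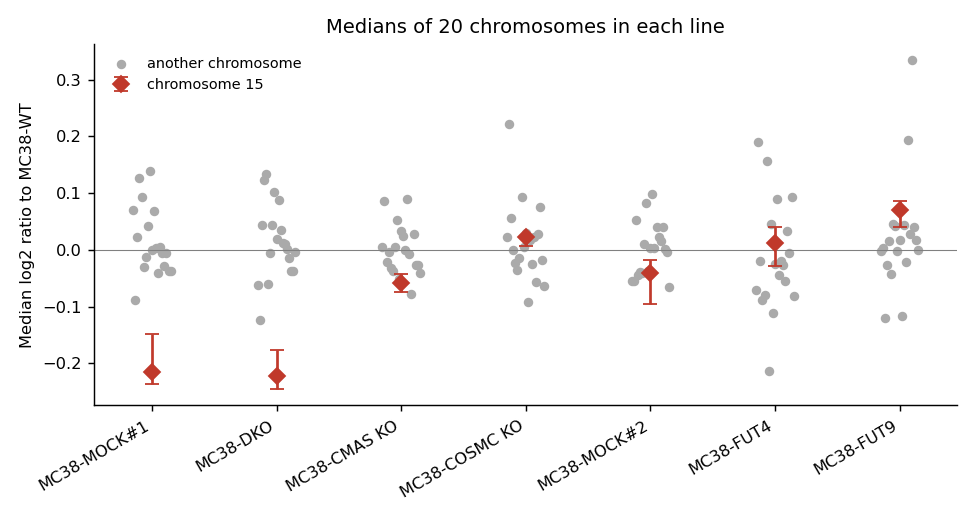
Median log2 ratio to MC38-WT (y axis) of the genes with a mean of at least 10 on each of 20 chromosomes, for 7 lines (x axis). The red diamond is chromosome 15 with the range of its 3 samples, and grey points are the other chromosomes. Chromosome 15 stands below all others in MC38-MOCK#1 (-0.215) and MC38-DKO (-0.223) and within them in the remaining 5 lines.

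Along the chromosome, the levels below MC38-WT reached from one end to the other. All 11 windows of 10 Mb had a median below 0 in MC38-MOCK#1, from -0.472 to -0.126, and in MC38-DKO, from -0.391 to -0.147. Of the same windows, 10 were below 0 in MC38-CMAS KO, 9 in MC38-MOCK#2, 6 in the line labelled FUT4, 4 in MC38-COSMC KO and 1 in MC38-FUT9. Relative to MC38-CMAS KO, MC38-DKO was at 0.103 in the window from 40 to 50 Mb (12 members) and below 0 in all others. The lowest windows of MC38-MOCK#1 were that from 60 to 70 Mb, which holds Myc and 10 further members (-0.472), and the first (-0.455, 26 members). In MC38-DKO the same windows stood at -0.391 and -0.389. Windows of 5 Mb gave 17 of 17 medians below 0 in both lines where a window held at least 5 members. Among these the lowest of MC38-MOCK#1 was that from 60 to 65 Mb, with Myc (-0.905, 5 members), and the lowest of MC38-DKO that from 30 to 35 Mb (-0.476, 19 members), where the window of Myc was at -0.431.

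A step was visible near 75 Mb, a position chosen after the values were seen. The 155 members before it had medians of -0.320 in MC38-MOCK#1 (samples -0.347 to -0.270) and -0.309 in MC38-DKO (-0.331 to -0.285), and the 317 members after it -0.159 (-0.185 to -0.107) and -0.161 (-0.230 to -0.111). Before and after this point the samples of neither line overlapped. Other lines had a step there too. It went from -0.127 to -0.010 in MC38-CMAS KO, from -0.062 to 0.052 in MC38-COSMC KO, from -0.106 to -0.003 in MC38-MOCK#2 and from -0.136 to 0.079 in the line labelled FUT4, whereas in MC38-FUT9 the value before the point was the higher (0.103 and 0.056). These steps share the MC38-WT samples as reference. Relative to MC38-CMAS KO, MC38-DKO showed no such step, with -0.150 before and -0.148 after.

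**Figure D3:**
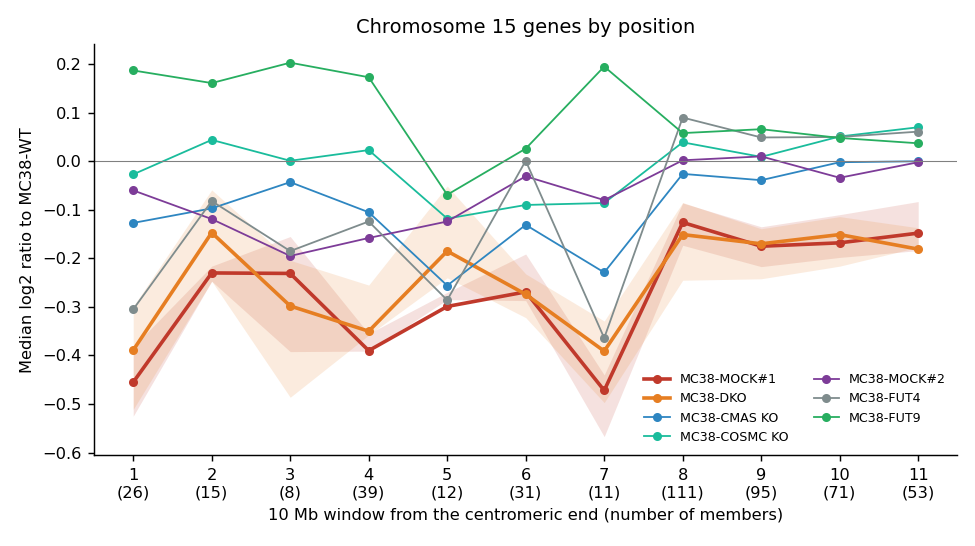
Median log2 ratio to MC38-WT (y axis) of the members in 11 consecutive 10 Mb windows of chromosome 15 (x axis, number of members in brackets), one line per cell line. Shaded bands give the range of the 3 samples for MC38-MOCK#1 and MC38-DKO, whose medians are below 0 in all 11 windows and stand at -0.472 and -0.391 in the window of Myc.

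Several further properties were examined, of which the level had entered the choice of members through the minimum mean of 10. By level, the 158 members of the highest class had a median ratio of -0.224 in MC38-MOCK#1 with 88.0% below MC38-WT, the 157 in the middle -0.212 with 76.4%, and the 157 of the lowest class -0.159 with 61.1%. By exon length, the 158 longest were at -0.261 and the 158 shortest at -0.175. Members on the plus strand (225) were at -0.231 and those on the minus strand (247) at -0.186. Protein coding members were at -0.206 and the 47 others at -0.241. In MC38-DKO the same classes ran from -0.151 for the shortest members to -0.295 for the longest. No class was at or above MC38-WT in either line.

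The window from 60 to 70 Mb contains Myc (ENSMUSG00000022346, chr15:61985391-61990374, plus strand, GRCm38). Myc was at 2138, 3325 and 2144 normalized counts in MC38-WT, 1230, 1197 and 1260 in MC38-MOCK#1 and 926, 1119 and 1584 in MC38-DKO. It was at 1310, 1349 and 1182 in MC38-MOCK#2 as well, and at 1743 to 2710 in MC38-CMAS KO, 1925 to 3018 in MC38-COSMC KO, 1808 to 2066 in the line labelled FUT4 and 2444 to 3179 in MC38-FUT9. Both mock lines and MC38-DKO thus lay below all samples of the other 5 lines, and overlapped with one another. Their log2 ratios to MC38-WT were -1.01, -1.07 and -0.95 for MC38-MOCK#1, MC38-DKO and MC38-MOCK#2.

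The 10 members of the Myc neighbourhood had a median of -0.688 in MC38-MOCK#1, with 10 below MC38-WT, and -0.411 in MC38-DKO, with 9 below. In other lines it was -0.375 in the line labelled FUT4, with 8 below, -0.248 in MC38-CMAS KO, with 9 below, and -0.201 in MC38-MOCK#2, with 7 below. Asap1, which switches off Arf GTPases, was at 1686 to 1805 in MC38-WT, 924 to 938 in MC38-MOCK#1 and 864 to 960 in MC38-DKO, a gap several times wider than the spread within these lines. It was also low in the line labelled FUT4, at 1088 to 1141, but not in MC38-MOCK#2, at 1826 to 2135. Washc5, a subunit of the WASH complex of endosomes, was at 1966 to 2090 in MC38-WT, 1472 to 1649 in MC38-MOCK#1 and 1509 to 1624 in MC38-DKO. Fam49b, a negative regulator of Rac1, was at 1163 to 1264, 812 to 906 and 795 to 1014 in the same order. None of these 3 genes overlapped between MC38-WT and either line. Fam49b and Washc5 were also below MC38-WT without overlap in MC38-CMAS KO (894 to 1022 and 1600 to 1856) and MC38-COSMC KO (965 to 1020 and 1702 to 1906). The same held in the line labelled FUT4 (875 to 996 and 1387 to 1448). Fam49b lay below it in MC38-MOCK#2 as well (869 to 1076), and Asap1 in MC38-COSMC KO (1406 to 1624). Trib1, a pseudokinase that guides proteins to degradation, was scattered in MC38-WT itself (337, 1194 and 1119).

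Genes of the ribosome and of translation are among the most abundant members. The list holds 11 members, of which Ywhaz, a 14-3-3 protein, is not a translation gene. All 11 were below MC38-WT in both lines, with medians of -0.245 in MC38-MOCK#1 and -0.150 in MC38-DKO. Most were also below it in MC38-CMAS KO (10, median -0.104), MC38-MOCK#2 (9, -0.102) and the line labelled FUT4 (7, -0.079). In MC38-COSMC KO 4 were below (0.031) and in MC38-FUT9 1 (0.173). Rpl8, a protein of the large ribosomal subunit, was at 23365, 19262 and 17446 in MC38-WT, at 15544, 16085 and 15856 in MC38-MOCK#1 and at 13436, 16579 and 16439 in MC38-DKO. The lowest MC38-WT sample was thus above the highest of both other lines. Pabpc1, which binds the poly(A) tail, was at 13639 to 15965 in MC38-WT, 11505 to 12914 in MC38-MOCK#1 and 11843 to 14102 in MC38-DKO, the last overlapping with MC38-WT. Rpl3 and Ywhaz had ratios of -0.20 and -0.23 in MC38-MOCK#1 and -0.15 and -0.14 in MC38-DKO.

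Cell division and genome maintenance was represented by 12 members, all below MC38-WT in both lines (medians -0.178 and -0.282). One of them, Mcat, is an enzyme of mitochondrial fatty acid synthesis. Of the 12, 10 were also below in MC38-CMAS KO (-0.124) and in the line labelled FUT4 (-0.120). The count was 6 in MC38-MOCK#2 (-0.009), 4 in MC38-COSMC KO (0.046) and 4 in MC38-FUT9 (0.117). Nipbl, which loads cohesin onto chromosomes, was at 2064 to 2442 in MC38-WT, 1581 to 1702 in MC38-MOCK#1 and 1509 to 1819 in MC38-DKO, with no overlap. It was also below MC38-WT without overlap in MC38-CMAS KO, at 1704 to 1829, and in the line labelled FUT4, at 1401 to 1641. Rad21, a subunit of cohesin, was at 3905 to 4176, 3507 to 3861 and 3236 to 4001. Its MC38-DKO samples overlapped with MC38-WT. Racgap1, part of the complex that organises the division furrow, had ratios of -0.17 and -0.28, and Espl1 (separase), which cuts cohesin, of -0.11 and -0.25. The 12 members of the list on chromatin and transcription had medians of -0.246 (11 below) and -0.422 (12 below), and of -0.305 (8 below) in the line labelled FUT4. Among its most abundant members, however, Kmt2d and Ep300 lay near MC38-WT. Kmt2d, a histone H3 methyltransferase, had ratios of 0.10 and -0.02, and Ep300, a histone acetyltransferase, of -0.03 and -0.03. Scrib and Sp1 were both at -0.13 in MC38-MOCK#1 and at -0.12 and -0.16 in MC38-DKO. The MC38-MOCK#1 samples of Sp1 (2192 to 2314) lay below those of MC38-WT (2379 to 2552).

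**Figure D4:**
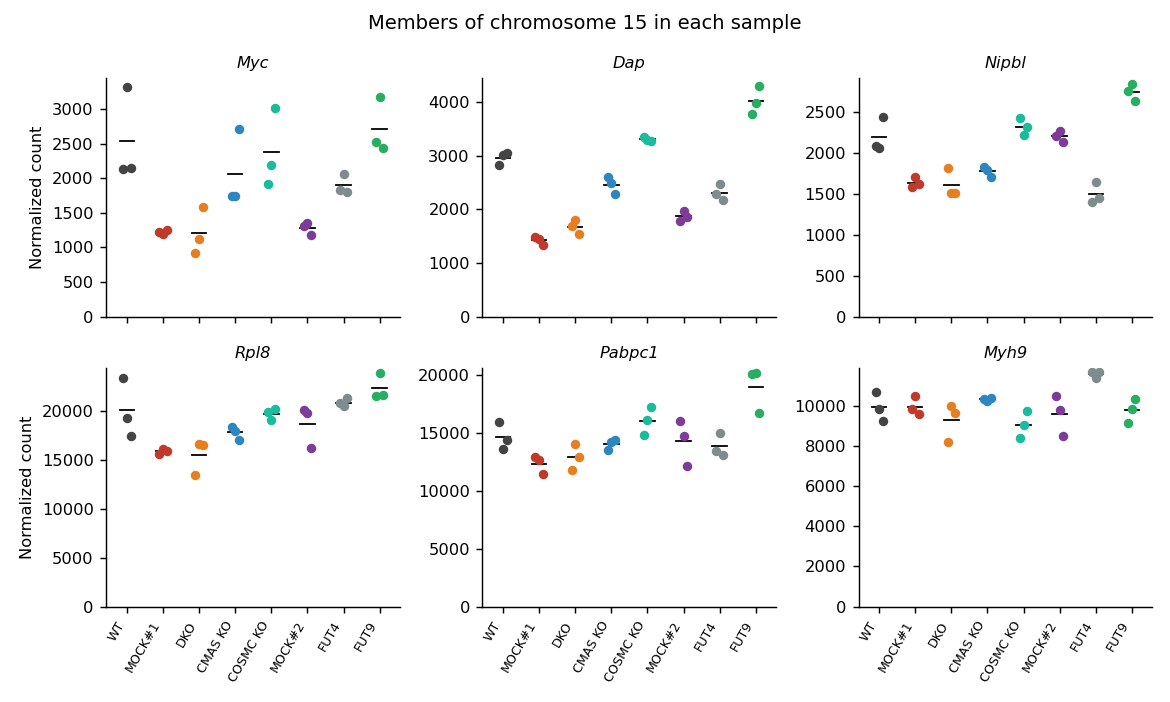
Normalized counts (y axis, from 0) of 6 members in the 3 samples of each of 8 lines (x axis), with a bar at the mean. Myc, Dap and Nipbl are lower in MC38-MOCK#1 and MC38-DKO than in MC38-WT without overlap, Rpl8 by a smaller margin, whereas Pabpc1 overlaps with MC38-WT in MC38-DKO and Myh9 is at 8227 to 10671 in these 3 lines. Also lower than MC38-WT without overlap are Dap and Nipbl in MC38-CMAS KO, Myc and Dap in MC38-MOCK#2, and Myc, Dap and Nipbl in the line labelled FUT4.

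The 7 keratin and cytoskeleton members had medians of 0.003 in MC38-MOCK#1, with 3 below MC38-WT, and -0.098 in MC38-DKO, with 6 below. Myh9 was at 10671, 9869 and 9252 in MC38-WT, 9834, 10486 and 9593 in MC38-MOCK#1 and 8227, 9990 and 9667 in MC38-DKO, with all 3 lines overlapping. Tuba1b and Tuba1c, near-identical alpha tubulin genes whose reads may be divided between them, had ratios of -0.04 and 0.00 in MC38-MOCK#1 and -0.12 and -0.04 in MC38-DKO. Plec, a linker of the cytoskeleton, was at -0.26 and -0.30.

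The Hoxc cluster, homeobox genes that specify position along the body axis, had 5 members with medians of 0.688 in MC38-MOCK#1 and 0.172 in MC38-DKO. Hoxc9 was below MC38-WT in both, with ratios of -0.21 and -0.34. The median was 0.563 in the line labelled FUT4 (0 below MC38-WT), 0.119 in MC38-COSMC KO (0 below) and 0.068 in MC38-FUT9 (2 below). In MC38-CMAS KO it was -0.084 (3 below) and in MC38-MOCK#2 -1.313 (4 below). Hoxc4 was at 29, 30 and 32 in MC38-WT, 60, 88 and 58 in MC38-MOCK#1 and 34, 53 and 52 in MC38-DKO, higher in all samples of both lines. It was also higher in all samples of the line labelled FUT4, at 42 to 48. Hoxc5 and Hoxc6 overlap other genes of the cluster in the annotation, and reads in more than 1 gene were not counted. Hoxc10, singled out after its values were seen, averaged 13.0 ± 2.65 in MC38-WT, 73.0 ± 8.0 in MC38-MOCK#1 and 93.3 ± 8.96 in MC38-DKO (SD, n = 3), while the other 5 lines averaged at most 19.7. The 5 glycan enzymes had medians of -0.070 and 0.146. Among them Pmm1, which supplies mannose 1-phosphate, was at 501 to 585 in MC38-WT, 589 to 662 in MC38-MOCK#1 and 551 to 677 in MC38-DKO, and Ext1, a polymerase of heparan sulfate, at 403 to 541, 318 to 463 and 373 to 412. Alg10b and Alg12, which add glucose and mannose to the precursor of N-glycans, had ratios of -0.07 and -0.08 in MC38-MOCK#1 and 0.15 and -0.12 in MC38-DKO.

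The 4 matrix and Wnt members had medians of -0.948 and -0.782, all 4 below MC38-WT in both lines. Such values were not limited to these lines, since the same 4 had medians of -0.859 in MC38-MOCK#2 (4 below), -1.015 in the line labelled FUT4 (3 below), -0.740 in MC38-FUT9 (2 below), -0.205 in MC38-CMAS KO (3 below) and 0.050 in MC38-COSMC KO (2 below). Matn2, a matrix protein, was at 287, 619 and 380 in MC38-WT, 114, 116 and 157 in MC38-MOCK#1 and 169, 129 and 129 in MC38-DKO. Sdc2, a heparan sulfate proteoglycan of the cell surface, was at 727 to 856, 467 to 527 and 474 to 613. Wnt10b, a secreted Wnt ligand, was at 210 to 258, 60 to 139 and 144 to 189, and Angpt1, the ligand of the receptor Tie2, at 53 to 68, 26 to 49 and 20 to 45. None of the 4 overlapped with MC38-WT in either line. Of the receptors, Ghr (growth hormone) had ratios of -1.1 and -0.93 but with MC38-WT samples at 54, 157 and 110, which overlap MC38-DKO. Lifr and Osmr, receptors of the interleukin 6 family, were at 0.32 and 0.14 in MC38-MOCK#1 and at -0.32 and -0.15 in MC38-DKO. Npr3, the clearance receptor of natriuretic peptides, was at 2, 5 and 12 in MC38-WT, 14 to 16 in MC38-MOCK#1 and 23 to 32 in MC38-DKO. Among the 7 members of innate immunity, with medians of 0.223 and 0.039, Ly6e, a GPI-anchored protein, was at 959 to 1475, 626 to 912 and 564 to 748, below MC38-WT without overlap. Apobec3, a cytidine deaminase that restricts retroviruses, was at 162 to 355, 293 to 412 and 298 to 352, Parp10 at 231 to 679, 277 to 560 and 225 to 369, and Tspo, of the outer mitochondrial membrane, at 525 to 1055, 768 to 1029 and 735 to 835. These 3 overlapped with MC38-WT in both lines.

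Among the 372 members with a mean of at least 100, the lowest ratios of MC38-MOCK#1 to MC38-WT were those of Ccn4 (-1.95), Trib1 (-1.89), Gramd4 (-1.86), Nckap1l (-1.82) and Sema5a (-1.76). Nckap1l, a subunit of the WAVE complex that is otherwise typical of blood cells, was at 463, 472 and 488 in MC38-WT, 99, 138 and 176 in MC38-MOCK#1 and 81, 73 and 91 in MC38-DKO, and in MC38-MOCK#2 at 99, 126 and 235. In the remaining 4 lines it was between 332 and 465, so the same 3 lines stood apart as for Myc. Ccn4, a secreted target of Wnt signalling, was at 242 to 476 in MC38-WT, 55 to 150 in MC38-MOCK#1 and 23 to 57 in MC38-DKO, and it was also below MC38-WT in the line labelled FUT4 (54 to 71), in MC38-FUT9 (47 to 117) and in MC38-MOCK#2 (77 to 157). Gramd4 was at 385 to 510 in MC38-WT, 95 to 155 in MC38-MOCK#1 and 147 to 188 in MC38-DKO. It was also low in the line labelled FUT4, at 131 to 213, but not in MC38-FUT9, at 860 to 1054. Sema5a, a semaphorin, was at 374 to 850 in MC38-WT, 145 to 240 in MC38-MOCK#1 and 271 to 347 in MC38-DKO. Sema5a was lower still in MC38-COSMC KO, at 79 to 139, and at 189 to 243 in MC38-CMAS KO. The highest ratios were those of Krt80 (1.51), Gm3362 (0.99), Mfng (0.84), Rrm2b (0.55) and Vdr (0.55). Krt80, a keratin, was at 129 to 222 in MC38-WT, 394 to 552 in MC38-MOCK#1 and 384 to 559 in MC38-DKO. Mfng, which elongates O-fucose on Notch, was at 132 to 195, 232 to 316 and 339 to 426. Rrm2b, the p53-inducible subunit of ribonucleotide reductase, was at 166 to 191, 253 to 264 and 222 to 283. These 3 genes were above MC38-WT in both lines without overlap. Krt80 was also above it without overlap in MC38-COSMC KO, at 281 to 495, and Rrm2b in the line labelled FUT4, at 214 to 224. Vdr, the vitamin D receptor, was at 73 to 119, 107 to 144 and 91 to 114. Gm3362 lies inside Rrm2b, and its MC38-WT samples ranged from 242 to 2864, so its ratio rests on 1 MC38-WT sample.

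Comparisons that used none of the lines behind the choice of the chromosome were tested with limma across all genes, with Benjamini-Hochberg adjustment and an adjusted p below 0.05 as the call. Of the 472 members, all 472 entered each of the 3 tests. MC38-COSMC KO against MC38-CMAS KO asked how the loss of O-glycan extension differs from that of sialic acid. It called 6 members (1.27%), 2 higher and 4 lower in MC38-COSMC KO, where 0.812% of all genes tested were called, 0.388% higher and 0.424% lower. Of the genes with a mean of at least 10, the limit that the members also passed, 162 of 13514 were called. That share is near that of the members. The median log2 fold change was 0.0719 over the members and 0.00396 over all genes tested. By limma, 105 members (22.2%) had an unadjusted p below 0.05, against 13.9% of all genes tested. In a fit limited to genes with a mean of at least 10 in the 6 samples, 2421 of 13461 had one, a share between these values.

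Dap, a suppressor of autophagy, and Nipbl were higher in MC38-COSMC KO. Dap (ENSMUSG00000039168, chr15:31224314-31274341, plus strand) was at 3355, 3295 and 3283 in MC38-COSMC KO and 2607, 2485 and 2297 in MC38-CMAS KO. Its log2 fold change was 0.43 ± 0.0592 (SE; limma adjusted p = 0.0242). In the lines that were not tested, Dap was at 2837 to 3059 in MC38-WT, 1342 to 1482 in MC38-MOCK#1, 1546 to 1808 in MC38-DKO and 1788 to 1971 in MC38-MOCK#2. For Nipbl the log2 fold change was 0.39 ± 0.0578 (limma adjusted p = 0.0322).

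The 4 members lower in MC38-COSMC KO were Efcab6, Tst, Fbln1 and Rpl39-ps. Efcab6, a calcium-binding protein, was at 161, 174 and 147 in MC38-COSMC KO and 611, 564 and 566 in MC38-CMAS KO (log2 fold change -1.85 ± 0.0910, limma adjusted p = 0.0015). Tst, the mitochondrial enzyme rhodanese, was at 29 to 37 and 76 to 103 (-1.49 ± 0.195, limma adjusted p = 0.0204). Fbln1 was at 2, 1 and 2 in MC38-COSMC KO and 45, 29 and 30 in MC38-CMAS KO (limma adjusted p = 0.0076). Its fold depends on the pseudocount at such low values and is not given. Rpl39-ps, a pseudogene of a ribosomal protein, was at 118 to 130 and 463 to 949, and its reads cannot be assigned with certainty. Leaving out any 1 of the 6 samples left 0 or 1 of these 6 calls, 1 of them without MC38-CMAS KO sample 1 or sample 3 and 0 without any other sample, while 15.3% to 23.3% of members and 11.6% to 15.9% of all genes then had an unadjusted p below 0.05 by limma. The replicate number, which in these lines is also the passage (4, 5 and 6), was also used as a block. By limma, 0 of the 472 members and 0 of all genes tested were then called, and 30.7% of members and 18.6% of all genes had an unadjusted p below 0.05. In this fit and in those without 1 sample, all genes include ones with a mean under 10, so the shares are not matched by level.

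MC38-FUT9 against MC38-MOCK#2 compared the activation of Fut9 with its mock line. It called 161 members (34.1%), of which 108 rose (22.9%) and 53 fell (11.2%). Over all genes tested 24.1% were called, 12.1% up and 12.0% down, and over those with a mean of at least 10 it was 33.4%, with 16.9% up and 16.5% down. With every sample rescaled to the same total the split was 90 and 70. Of the 155 members before 75 Mb, 51 rose and 15 fell, and of the 317 after it, 57 and 38. The median log2 fold change was 0.216 before this position (0.180 to 0.210 within single samples) and 0.057 after it (0.032 to 0.086).

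Myc rose, with 2532, 3179 and 2444 in MC38-FUT9 against 1310, 1349 and 1182 in MC38-MOCK#2 (log2 fold change 1.08 ± 0.112, limma adjusted p = 0.00112). In all, 6 of the 10 members of the Myc neighbourhood rose and 0 fell, among them Asap1 (0.37 ± 0.0827) and Fam49b (0.41 ± 0.0936). Dap, at 3781 to 4297 against 1788 to 1971, rose by 1.1 ± 0.0717 (limma adjusted p = 0.000298). Of the other lists, 4 of 11 ribosome and translation members rose (Rpl30, Rpl37, Eef1d and Ywhaz, the last no translation gene) and 0 fell, as did 2 of 12 in cell division, 2 of 12 in chromatin, 3 of 5 in the Hoxc cluster and 1 of 7 in the cytoskeleton, Plec (0.91 ± 0.120). Ywhaz (0.23 ± 0.0651) and Nipbl (0.32 ± 0.0587) rose by less. Among 7 innate immunity members 2 rose and 4 fell, with Ly6e at 550 to 598 against 288 to 399 and Apobec3 at 57 to 75 against 253 to 433 (log2 fold change -2.17 ± 0.229, limma adjusted p = 0.00117). Sdc2 and Matn2 rose and Wnt10b fell among 4 matrix and Wnt members, 1 of 5 glycan enzymes rose (Alg10b) and 2 fell (Pmm1 and Has2), and 2 of 4 receptors fell (Osmr and Lifr). Of all genes with a mean of at least 10, 16.9% rose and 16.5% fell, and the counts in these short lists were not tested against those shares.

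The called members with the largest changes and no overlap included several that were nearly silent in one of the lines. Mtss1, a scaffold that bends membranes, was at 71, 62 and 76 in MC38-FUT9 and 10, 11 and 11 in MC38-MOCK#2 (2.60 ± 0.198, limma adjusted p = 0.000446). Syngr1, a protein of synaptic vesicles, was at 81 to 100 against 13 to 21 (2.47 ± 0.233), Fbln1 at 129 to 157 against 9 to 24 (3.32 ± 0.359), and Gsdmd, which forms the pores of pyroptosis, at 41 to 75 against 2 to 5 (3.60 ± 0.380). Tmem117 was at 35 to 37 against 1 to 3, but it reached the minimum mean of 10 only through MC38-FUT9, so its rise is not independent of the choice of members. Among those that fell, Card10, a scaffold of NF-kappaB signalling, was at 2, 3 and 3 against 140, 97 and 76, and Cdh6, a cadherin of cell adhesion, at 1, 1 and 0 against 32, 27 and 35. Has2, which makes hyaluronan, was at 0 or 1 against 9 to 19, Cyp2d22 at 0 to 2 against 28 to 32, and Apol9a at 5 to 23 against 49 to 363. Leaving out 1 sample gave 81 to 162 calls, with 81, 83 and 104 without MC38-FUT9 samples 1, 2 and 3 and 103 without MC38-MOCK#2 sample 2. Apol9a was then called in 1 of 6 fits and the other 9 of these in all 6.

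The line labelled FUT4 against the same MC38-MOCK#2 samples called 118 members, of which 74 rose (15.7%) and 44 fell (9.32%). Over all genes tested 16.1% were called, 8.10% up and 8.04% down, and over those with a mean of at least 10 it was 22.1%, with 10.4% up and 11.6% down. Before 75 Mb 18 members rose and 21 fell (median log2 fold change -0.023), and after it 56 rose and 23 fell (0.061).

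Myc rose here too, at 1827, 2066 and 1808 against 1310, 1349 and 1182 (0.57 ± 0.0827, limma adjusted p = 0.00513), whereas Asap1 fell (-0.82 ± 0.0747, limma adjusted p = 0.000971) and so did Washc5 (-0.62 ± 0.0750). The counts in the lists were not tested against the shares of all genes with a mean of at least 10, of which 10.4% rose and 11.6% fell. In the Myc neighbourhood 3 rose and 2 fell. Of the 12 cell division members 0 rose and 3 fell, Nipbl (-0.56 ± 0.0765) and Rad21 (-0.32 ± 0.0721) among them. Of the chromatin list 2 rose and 4 fell, of ribosome and translation 2 and 2, and of innate immunity 1 and 2. Ly6e, at 2211, 1465 and 2284 against 309, 288 and 399, was the one that rose (2.56 ± 0.198, limma adjusted p = 0.000534). In the Hoxc cluster 4 of 5 rose, with Hoxc5 at 59 to 73 against 16 to 18 (1.89 ± 0.198) and Hoxc4 at 42 to 48 against 10 to 13 (1.88 ± 0.228). Wnt10b rose from 103 to 129 in MC38-MOCK#2 to 442 to 747 (2.37 ± 0.215), 2 of 5 glycan enzymes rose (Pmm1 and Has2), 1 of 4 receptors rose (Npr3), and 0 of 7 cytoskeleton members was called. Without the line labelled FUT4, Npr3 would not have reached the minimum mean of 10.

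Among the members with the largest changes, Cdh6 was at 423, 372 and 402 against 32, 27 and 35 (3.64 ± 0.137, limma adjusted p = 7.69e-05), and Has2 at 146, 91 and 149 against 19, 12 and 9 (3.20 ± 0.327). Both genes therefore stood far above MC38-MOCK#2 in the line labelled FUT4 and were close to 0 in MC38-FUT9. Rims2, of the release sites of vesicles, was at 172 to 299 against 7 to 11 (4.68 ± 0.278) and Csmd3 at 93 to 112 against 3 to 12 (3.74 ± 0.433). Krt6a, a keratin of stressed epidermis, was at 122, 88 and 106 against 1, 0 and 0. Krt6a and Csmd3 reached the minimum mean of 10 only through this line, so their rise is not independent of the choice of members. Tns2, a tensin of focal adhesions, fell from 970 to 1380 in MC38-MOCK#2 to 59 to 137 (-3.48 ± 0.322, limma adjusted p = 0.00104), and Acvrl1, a type I receptor of the TGF-beta family, from 96 to 181 to 10 or 11 (-3.42 ± 0.286). Acvrl1 was at 84 to 94 in MC38-FUT9 and at most 6 in the other 5 lines. Card10 was at 1, 5 and 4, Fbln1 at 1, 0 and 1, and Rapgef3, a cAMP-activated exchange factor, at 5 to 11 against 23 to 57. Leaving out 1 sample gave 51 to 91 calls, with 51 and 52 without samples 1 and 3 of the line labelled FUT4 and 60 without MC38-MOCK#2 sample 2, and Rapgef3 was then called in 1 of 6 fits.

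**Figure D5:**
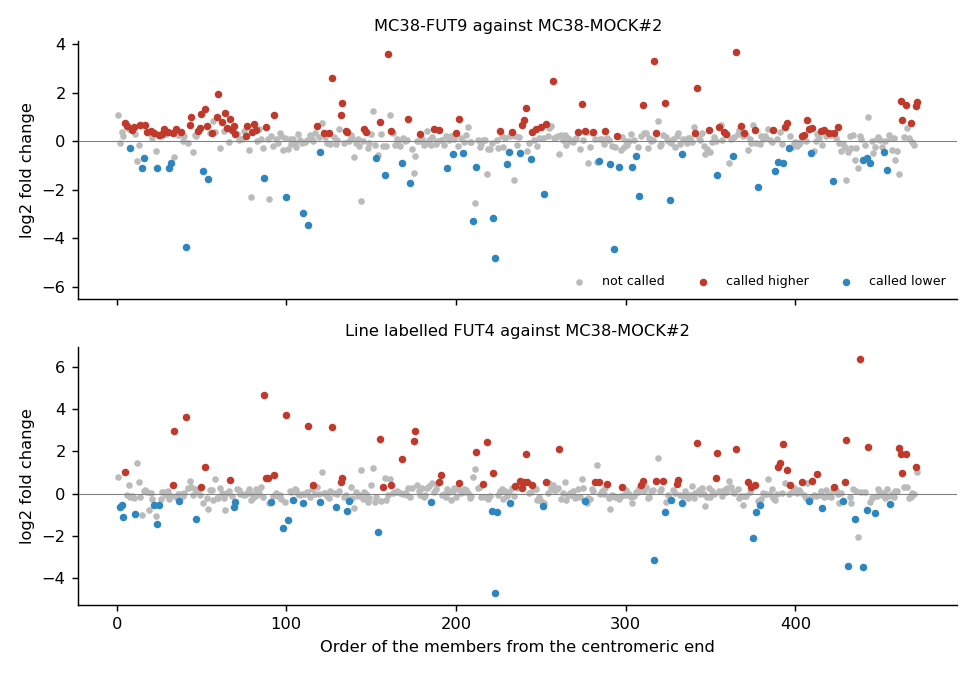
Log2 fold change (y axis) of the 472 members in their order from the centromeric end (x axis) for MC38-FUT9 (top) and the line labelled FUT4 (bottom), both against MC38-MOCK#2. Red and blue points are the members that limma called higher and lower (108 and 53 at the top, 74 and 44 at the bottom), and grey points were not called. In the top panel, 51 of the 155 members before 75 Mb were called higher.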

How the data were processed

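RNA of 24 samples, 3 from each of 8 MC38 lines, had been sequenced as 50-base single reads from stranded mRNA libraries. The authors trimmed the reads, aligned them with HISAT2 2.0.4 to GRCm38, processed them further with SAMtools 0.1.19 and counted them per gene with featureCounts (Subread 1.5.0-p3), leaving out reads in more than 1 gene. They then scaled the counts with edgeR 3.18.1. What the authors deposited is a score, a scaled read count rounded to a whole number and not a raw count, so depth is unknown and no count test was used. The totals of 10911849 to 12263307 per sample are totals after scaling. Coordinates, strand and exon length (the deposited column of another unit, in bases) come from the table, names and biotypes from the annotation.

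Ratios are differences of group means of log2(value + 1), so changes of low genes are understated. The tests used limma 3.58.1 in R 4.3.3 (lmFit, eBayes with trend) on the same scale, on 6 samples without covariates, over all genes with at most 4 zeros. On simulated data with 200 genes changed 2-fold it called 130 of them for MC38-COSMC KO against MC38-CMAS KO, 114 for MC38-FUT9 and 116 for the line labelled FUT4. Other steps were run in Python 3.11.15 (pandas 2.3.3, numpy 2.4.6, matplotlib 3.10.9). Within lines, the lowest mean chi-square per gene (4.65) was that between samples 1 and 3 of the line labelled FUT4, both labelled passage 7, and all samples were counted as separate. Whether each sample is a separate culture is known only from the passages, so p-values measure the spread between these samples.

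The members, the lists and the tests were chosen with earlier results of these data known. Named were up to 4 members of each list with the highest mean and Myc, the 5 highest and lowest ratios of MC38-MOCK#1 to MC38-WT among members with a mean of at least 100, and for each test the 5 called members with the largest change in either direction whose samples do not overlap. Alternatives were the pseudocount, filter, scaling, symbols left out, windows, a fit of all 8 lines, no trend, the replicate block, a minimum absolute log2 fold change of 1, and fits without one of the samples.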

Additional observations from a re-analysis of the deposited data

Results flagged for a closer look

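Loss of C1galt1c1 is added in 2 comparisons, to a line that does or does not already lack Cmas. The median of the chromosome had opposite signs in them. The median log2 ratio over the 472 members was 0.202 in MC38-COSMC KO relative to MC38-MOCK#1 (samples 0.192 to 0.227) and -0.15 in MC38-DKO relative to MC38-CMAS KO (samples -0.171 to -0.121). Every sample of the first lay above its reference and every sample of the second below. The difference was not tested, because MC38-MOCK#1 and MC38-DKO are the lines for which the chromosome was picked. The opposite signs restate that choice, since MC38-MOCK#1 is the reference of the first comparison and MC38-DKO the line compared in the second. Relative to MC38-WT, MC38-COSMC KO was at 0.023 (samples 0.008 to 0.024).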

How the results depend on the processing

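The medians of MC38-MOCK#1 and MC38-DKO stayed below 0 under every alternative run, from -0.215 to -0.107 and from -0.226 to -0.125 apart from the fits that leave out a sample. The values nearest to 0, -0.107 and -0.125, came from taking all 868 genes of the chromosome with a mean above 0, where MC38-CMAS KO, MC38-COSMC KO and MC38-FUT9 were at 0.0. With each sample rescaled to the same total, MC38-COSMC KO was at -0.004 and MC38-FUT9 at 0.003, and scaling by the median of ratios gave 0.014 for MC38-COSMC KO. Leaving out 1 sample gave -0.227 to -0.178 for MC38-MOCK#1, -0.24 to -0.191 for MC38-DKO, -0.074 to -0.044 for MC38-CMAS KO, -0.001 to 0.028 for MC38-COSMC KO, -0.063 to -0.019 for MC38-MOCK#2, -0.022 to 0.042 for the line labelled FUT4 and 0.043 to 0.079 for MC38-FUT9. The cause of these changes was not tested.

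The number of members called in MC38-COSMC KO against MC38-CMAS KO, 6, became 10 with a mean of at least 10 in the 6 samples, 3 without a trend, 14 in a fit of all 8 lines and 0 to 1 without 1 sample. For MC38-FUT9 the 161 calls became 100 without a trend, 49 with an absolute log2 fold change above 1 and 81 to 162 without 1 sample, and for the line labelled FUT4 the 118 became 69, 42 and 51 to 91. A replicate block gave counts of 0, 165 and 64. Same-numbered samples correlated in their deviations from the line means by 0.0709 to 0.209, 0.0928 to 0.193 and -0.11 to 0.188 in these comparisons, with 1 or more pairs under 0.1 in each. Same-numbered samples share the passage in the first and second comparison but not in the third, and whether they were harvested together is not given in the sources used here. Where the block left 0 calls, limma called 0 of all genes tested, and 145 members (30.7%, against 18.6% of all genes) had an unadjusted p below 0.05. These shares are not matched by level, as all genes tested include ones with a mean under 10. Of the named calls, 12 of 258 values under the alternatives, other than those that leave out a sample, were no longer past the threshold, and 44 of 156 without 1 sample. No direction turned. The depth of the libraries is unknown, which limits what can be said of members near 0.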
